A study of Homo sapiens with 8 samples.

Results

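The genes described here encode enzymes and complexes that write, erase and read the marks on histones or move nucleosomes. They were chosen by symbol alone, as every gene in either cell line's table whose symbol begins with KAT, MLL or KMT2, SETD, SETDB, EZH, HDAC, SIRT, KDM, BRD, SMARC, ARID or CHD, with KDM5C, KDM5D and KDM6A left out. The rule gave 97 genes of 12715, of which 95 were listed in BCPAP, 93 in CAL-62 and 91 in both. ARID5B, MLLT11, MLLT3 and SETDB2 were listed in BCPAP only, and BRD2 and HDAC4 in CAL-62 only. The stem MLL also caught 6 MLLT genes, named for their fusions with MLL in leukaemia, and 1 of these, MLLT4 (now AFDN), encodes the cell junction protein afadin. Older symbols were kept as deposited: MLL is now KMT2A, MLL3 is KMT2C, MLL5 is KMT2E and SETD8 is KMT5A.

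Acetyltransferases (KAT) and methyltransferases (MLL, SETD, SETDB, EZH) write histone marks, and deacetylases (HDAC, SIRT) and demethylases (KDM) remove them. Bromodomain proteins (BRD) bind acetylated histones and bring other factors to promoters and enhancers. SMARC and several ARID proteins are subunits of SWI/SNF and related remodelers, and CHD proteins are remodelers that include the motor of the NuRD deacetylase complex.

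Poly(A)-selected RNA was sequenced from 2 human cell lines of thyroid carcinoma. The labels give both as anaplastic, although BCPAP is usually catalogued as derived from a papillary carcinoma. Each line received THZ1, a covalent inhibitor of the transcription kinase CDK7 that also acts on CDK12 and CDK13, at 100 nM for 6 h, or the vehicle DMSO, with 2 libraries in each of the 4 groups. Each line is 1 tumour's culture, and BCPAP grew in an RPMI medium but CAL-62 in DMEM with more serum, so an effect of the medium cannot be told apart from one of the line. Whether the replicates were separate cultures is not in the labels. The p-values therefore describe only how far these libraries spread, and that spread may be technical.

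Values are RPKM-type values, that is, reads per gene scaled to the gene's length and to a library total. Each library held between 16681826 and 19988647 reads in listed genes, and its median gene had 399 to 730 reads. The chromatin genes had 53 to 10612 reads per library in BCPAP and 36 to 9282 in CAL-62, and all of them passed the filter of a mean value of at least 1. The lowest DMSO mean in either table was just above 1, while THZ1 means went down to 0, so a gene that was low under DMSO and came on with THZ1 is outside the tables. Of the thyroid markers, PAX8, NKX2-1 and FOXE1 were listed in BCPAP and only PAX8 in CAL-62, while TG, TSHR and SLC5A5 were listed in neither. Blood and endothelial markers were listed in neither line (0 of 3 each), and COL1A1 was the only 1 of 3 fibroblast markers listed. Of the 3 epithelial markers, the keratins KRT8 and KRT18 were listed in both lines and EPCAM in CAL-62 only.

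In CAL-62, 6 h of THZ1 raised the deacetylase gene HDAC1 and lowered the methyltransferase gene SETDB1. No other gene of the symbol rule passed the test. This refers to the limma fit on log2 values of all 8 libraries, without a block for replicate number. Counts of chromatin genes below are of the genes of that rule unless stated. Of 86 related chromatin genes outside the rule, described further below, the same fit called 4 lower (4.65%). HDAC1 encodes a catalytic subunit of the NuRD, Sin3 and CoREST repressor complexes. SETDB1 encodes an enzyme that methylates histone H3 lysine 9 and is known for silencing retroelements together with TRIM28. These were 2 of 93 genes called (2.15%; limma adjusted p under 0.05), 1 in each direction. Among all 11362 genes tested in CAL-62, 4.62% were called, 0.581% as higher and 4.04% as lower. Limma-voom on the recovered reads called 3, these 2 and BRD3. Limma with a block for replicate number called 27 of the 93 (12 higher, 15 lower), and 40.2% of all genes. No label says what a number stands for, so calls given below are those without the block unless stated.

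In CAL-62, HDAC1 stood at 52.5 and 53.0 under vehicle and at 112 and 107 with THZ1. Both THZ1 libraries were far above both DMSO libraries, which differed little from each other. The mean went from 52.8 ± 0.364 to 109 ± 3.21 (SD, n = 2), a change of 1.04 in log2(value + 1) (SE 0.20, limma adjusted p = 0.0365), on 2369 to 4184 reads per library. In BCPAP, where HDAC1 began higher, its values were 78.9 and 83.1 under DMSO and 94.4 and 126 after THZ1. The BCPAP groups did not overlap either, but the change of 0.43 (SE 0.20) did not pass the test (limma adjusted p = 0.932). The change in CAL-62 exceeded that in BCPAP by 0.61, with a 95% interval from -0.05 to 1.27 (limma adjusted p = 0.843).

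In the same line SETDB1 stood at 5.63 and 4.86 under vehicle and at 1.88 and 1.40 with THZ1. Both treated libraries were well below both controls. The mean fell from 5.24 ± 0.548 to 1.64 ± 0.340 (SD, n = 2), a change of -1.24 (SE 0.23, limma adjusted p = 0.032), on 121 to 566 reads per library. In BCPAP the values were 7.12 and 6.55 under DMSO and 4.33 and 3.44 after THZ1. Again both treated libraries were lower, with a change of -0.69 (SE 0.23) that had an unadjusted p under 0.05 but did not pass the test (limma adjusted p = 0.932). The difference between the lines was -0.56, with a 95% interval from -1.32 to 0.20.

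Both calls had narrow margins. Leaving out any 1 of the 4 CAL-62 libraries, or either BCPAP DMSO library, ended both calls (adjusted p over the 8 omissions 0.0343 to 0.207 for HDAC1 and 0.0407 to 0.18 for SETDB1), while the changes stayed between 1.01 and 1.07 for HDAC1 and between -1.38 and -1.11 for SETDB1. The rise of HDAC1 also depended on the scaling: it was 0.61 (limma adjusted p = 0.0685) when libraries were scaled to their sums of reads and 0.08 (adjusted p = 0.8) when scaled to 76 ribosomal protein genes, where the median of all genes was -0.33 and -0.78.

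The 250 bases before the first listed start of HDAC1 and SETDB1 are printed. These are the genes of the symbol rule that passed the test after THZ1. The windows are from RefSeq on GRCh38.p14, both on the plus strand, HDAC1 at chr1:32291833-32292082 and SETDB1 at chr1:150926013-150926262. Capitals mark matches to the GC box, with the letters GGGCGG on this strand or CCGCCC for the other strand. They also mark the CCAAT box, read as ATTGG on the other strand. The TATA box, searched with the letters TATAAA or, for the opposite strand, TTTATA, was in neither window.
HDAC1: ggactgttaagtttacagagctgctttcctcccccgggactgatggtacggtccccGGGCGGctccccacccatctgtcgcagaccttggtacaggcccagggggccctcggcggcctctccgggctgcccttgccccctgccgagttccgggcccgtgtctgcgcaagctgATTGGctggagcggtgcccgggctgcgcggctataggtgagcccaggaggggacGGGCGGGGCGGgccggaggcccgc
SETDB1: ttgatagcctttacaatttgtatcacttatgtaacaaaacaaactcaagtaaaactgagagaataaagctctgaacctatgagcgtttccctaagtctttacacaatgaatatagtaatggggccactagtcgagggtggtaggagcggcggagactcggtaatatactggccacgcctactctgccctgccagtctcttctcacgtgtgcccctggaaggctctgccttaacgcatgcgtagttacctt
The HDAC1 window held 3 GC box matches, of which a pair overlap at its 3′ end, and 1 CCAAT match. The SETDB1 window held none of the 3 motifs, and RefSeq lists 2 starts for the gene, of which this is the first. Of the 97 chromatin genes, 84 matched a window. A GC box match was present in 65.5% of these, in 68.9% of the windows of 8420 other listed genes and in 42.3% of all 27305 windows. For the CCAAT box the shares were 31.0%, 35.4% and 33.0%, and for the TATA box 1.19%, 4.92% and 11.1%. A match is only a match of letters.

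**Figure D1:**
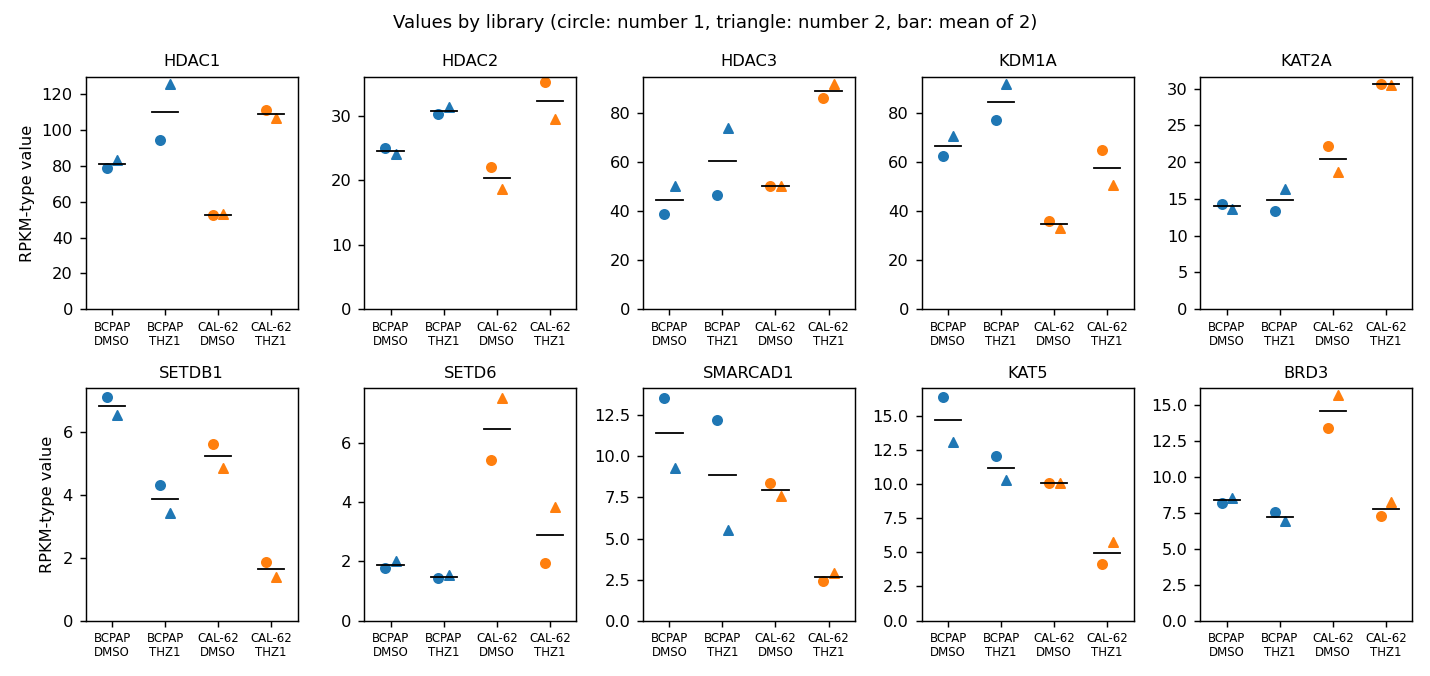
RPKM-type values (vertical axes, linear from 0) of 10 chromatin genes in each library of the 4 groups, with circles for replicate number 1, triangles for number 2 and bars for the mean of 2. In CAL-62 the THZ1 points of HDAC1, HDAC2, HDAC3, KDM1A and KAT2A lie above the DMSO points and those of SETDB1, SETD6, SMARCAD1, KAT5 and BRD3 below; only HDAC1 and SETDB1 passed the test.

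Across all the chromatin genes, changes in CAL-62 were mixed. Of the 93 tested there, 43 had a positive and 50 a negative change (53.8% negative), against 48.2% negative among all genes. Their median change was -0.07, against 0.03 for all genes. It was -0.41 under sums of reads and -0.90 under the ribosomal protein scaling, against -0.33 and -0.78 for all genes, so the signs of the CAL-62 changes given below are those under the deposited scaling. The THZ1 and DMSO libraries did not overlap for 24 chromatin genes that were higher (25.8%, against 30.1% of all genes) and 28 that were lower (30.1%, against 27.4%). An unadjusted p under 0.05 was reached by 24 of them (25.8%), against 30.1% of all genes. In BCPAP, limma called 0 of 95 (0.0% of 11743 genes were called), 2 of the 95 had an unadjusted p under 0.05 (2.11%, against 4.01%), and limma-voom, run on the recovered reads, called 0 as well. The BCPAP median was 0.07, the same as for all genes. In BCPAP the groups did not overlap for 25 chromatin genes that were higher (26.3%, against 21.9% of all genes) and 13 that were lower (13.7%, against 16.4%).

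**Figure D2:**
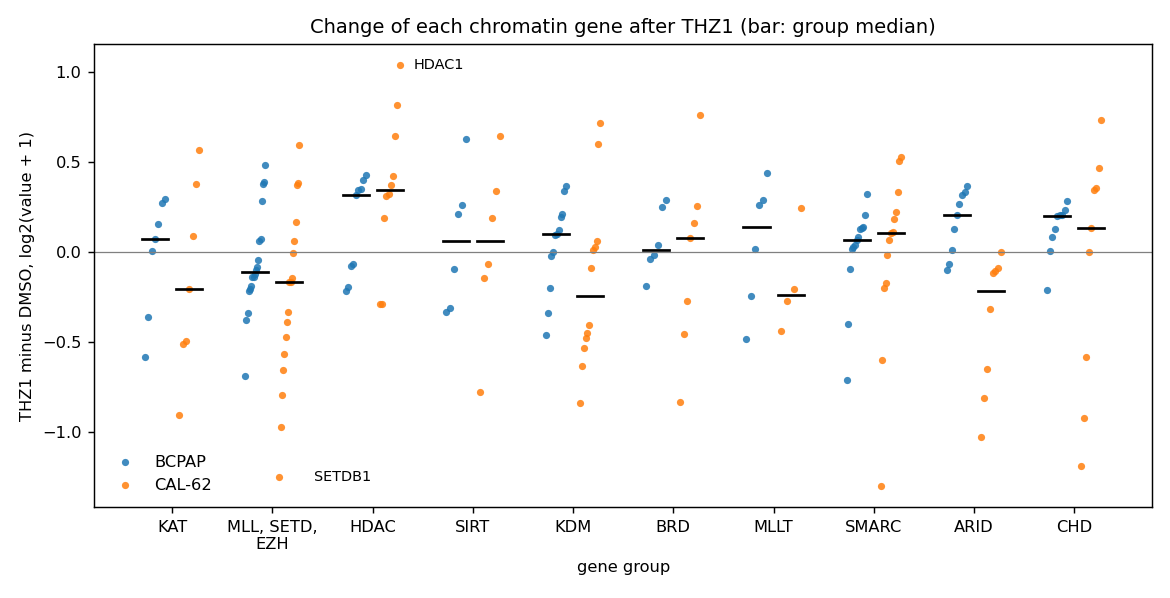
Change of each chromatin gene after THZ1 (vertical axis, THZ1 minus DMSO in log2(value + 1)) in the 10 gene groups, with blue points for BCPAP, orange points for CAL-62 and black bars for the median of each group. The HDAC medians are 0.31 and 0.35, all 8 ARID genes of CAL-62 are at or below 0, and HDAC1 at 1.04 and SETDB1 at -1.24 are the 2 called genes.

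Among the 7 acetyltransferase genes none was called, against 4.62% of all genes in CAL-62 and 0.0% in BCPAP. No call in a group this small is close to those shares. The lowest CAL-62 change of the group was that of KAT5 (TIP60), the catalytic subunit of the NuA4-type complex. KAT5 stood at 10.11 and 10.05 under DMSO in CAL-62, against 4.16 and 5.78 with THZ1. Both treated libraries were lower, with a change of -0.91 (SE 0.24, limma adjusted p = 0.0663). In BCPAP its change was -0.36. KAT2A (GCN5), the acetyltransferase of the SAGA and ATAC coactivators and the most expressed of the group in CAL-62 after THZ1, had values of 22.2 and 18.6 against 30.7 and 30.4 in CAL-62. Its treated libraries were the higher pair, with a change of 0.56 (adjusted p = 0.116). KAT8 (MOF), which acetylates histone H4 lysine 16, had negative changes in both lines, -0.58 in BCPAP and -0.49 in CAL-62. KAT2B (PCAF), the paralogue of KAT2A, had the lowest level of the group, with means of 3.73 in BCPAP and 1.56 in CAL-62 under DMSO.

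The 17 methyltransferase genes tested in CAL-62 gave 1 call, SETDB1 (5.88%, against 4.62% of all genes). Their median change was -0.17, with 12 negative (70.6%, against 48.2% of all genes). It was -0.58 under sums of reads and -1.07 under the ribosomal protein scaling, against -0.33 and -0.78 for all genes. In BCPAP 12 of 18 changes were negative (66.7%, against 41.4% of all genes), with a median of -0.11, against 0.07. SETD6, which methylates the NF-κB subunit RELA, had CAL-62 values of 5.44 and 7.55 under DMSO and 1.95 and 3.86 after THZ1. The groups did not overlap, with a change of -0.97 (SE 0.29, limma adjusted p = 0.0805). EZH2, the catalytic subunit of the Polycomb repressive complex PRC2, which methylates histone H3 lysine 27, had BCPAP values of 15.5 and 13.6 under DMSO and 24.4 and 17.5 after THZ1. Both treated BCPAP libraries were higher (change 0.48, adjusted p = 0.932), while in CAL-62 values of 33.2 and 33.1 stood against 44.5 and 31.3 and overlapped. SETD2, which places trimethylation on histone H3 lysine 36 during elongation, had changes of 0.39 in BCPAP and 0.38 in CAL-62, and its groups overlapped in both lines. SETD5, a SET domain protein, was the most expressed of the group in CAL-62 (40.9 and 38.3 under DMSO), and SETDB2 the least expressed in BCPAP (1.36 and 0.968).

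Among the MLL genes, chosen here after their values were seen, MLL had a change of -0.57 and MLL3 one of 0.59 in CAL-62, and neither was called (limma adjusted p = 0.185 and 0.176). MLL3 has near-identical partial copies elsewhere in the genome, so its count is uncertain. The symbols MLL2 and MLL4 have been swapped in the literature. The counted length of MLL2 was 19419 bases, equal to the longest KMT2D transcript, and that of MLL4 was 8469 bases, equal to the longest KMT2B transcript.

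The deacetylases were the group with the highest CAL-62 median, 0.35 for 10 HDAC genes. That median was -0.02 under scaling to sums of reads and -0.43 under scaling to ribosomal protein genes, where all genes had medians of -0.33 and -0.78. Under the deposited scaling 8 changes were positive and 2 negative (20.0%, against 48.2% of all genes), with 1 call (10.0%, against 4.62%). In BCPAP the HDAC median was 0.31, with 4 of 9 changes negative (44.4%, against 41.4% of all genes) and no call (0.0%, as for all genes). HDAC3, the catalytic subunit of the NCoR and SMRT corepressor complexes, had CAL-62 values of 50.3 and 50.5 under DMSO and 86.5 and 92.2 after THZ1. All treated values were above all controls, with a change of 0.81 (SE 0.26, limma adjusted p = 0.0892) that turned to -0.14 under the ribosomal protein scaling. HDAC2, the paralogue of HDAC1 and chosen here after its values were seen, had CAL-62 values of 22.1 and 18.6 against 35.1 and 29.4 (change 0.64, adjusted p = 0.0835). Its groups did not overlap in BCPAP either, at 25.05 and 24.04 against 30.2 and 31.3. HDAC4, a class IIa deacetylase with weak enzymatic activity of its own, was listed in CAL-62 only, at 1.85 and 1.54 under DMSO and 1.07 and 1.35 after THZ1.

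The 6 sirtuin genes, which encode NAD-dependent deacylases, gave no call (against 4.62% of all genes in CAL-62 and 0.0% in BCPAP). SIRT1, a nuclear deacetylase of histones and p53, was 1 of 2 chromatin genes whose responses in the lines differed at an unadjusted p under 0.05. Its BCPAP values were 9.70 and 7.004 under DMSO and 17.4 and 10.1 after THZ1. Its CAL-62 values were 11.1 and 13.3 under DMSO and 8.53 and 5.196 after THZ1. The treated libraries were thus the higher pair in BCPAP and the lower pair in CAL-62, without overlap in either line. The difference of the changes was -1.40 (SE 0.47, limma adjusted p = 0.834), with a 95% interval from -2.50 to -0.31. SIRT6 was the most expressed sirtuin in BCPAP (19.6 and 26.4 under DMSO) and SIRT5, a mitochondrial desuccinylase, the least (1.19 and 1.73).

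None of the 12 demethylase genes was called after THZ1 (against 4.62% of all genes in CAL-62 and 0.0% in BCPAP). KDM1A (LSD1), which removes methyl groups from histone H3 lysine 4 in the CoREST complex, was the most expressed. Its CAL-62 values were 36.0 and 33.3 under DMSO and 64.8 and 50.7 after THZ1. The treated pair was higher, with a change of 0.71 (SE 0.21, limma adjusted p = 0.0774) that turned to -0.24 under the ribosomal protein scaling. In BCPAP its values were 62.5 and 70.8 against 77.4 and 91.8. KDM4A, a demethylase of histone H3 lysines 9 and 36, had CAL-62 values of 10.7 and 13.5 under DMSO and 5.75 and 6.86 after THZ1. Both treated libraries were lower, with a change of -0.84 (SE 0.25, adjusted p = 0.0796), against -0.20 in BCPAP. KDM6B, a demethylase of histone H3 lysine 27, had a change of -0.46 in BCPAP, where its groups did not overlap, and of -0.48 in CAL-62, where they did. KDM4C was the least expressed demethylase in BCPAP, with values from 2.77 to 3.40.

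Of the readers, none was called after THZ1 in either line by limma on log2 values, under the deposited scaling and without the block. That fit called 4.62% of all genes in CAL-62 and 0.0% in BCPAP. In CAL-62, limma-voom called BRD3, as did limma with upper-quartile, sums-of-reads or ribosomal protein scaling, or with the replicate block. The ribosomal protein scaling, under which 29.1% of all genes were called, also called BRD1, MLLT1, MLLT6 and MLLT10. BRD3, whose paired bromodomains bind acetylated histone tails, had the lowest CAL-62 change of the bromodomain genes. Its CAL-62 values were 13.4 and 15.7 under DMSO and 7.26 and 8.23 after THZ1. The treated libraries lay close together below the controls (change -0.83, SE 0.21, limma adjusted p = 0.0614). In BCPAP its change was -0.19. BRD2, a close relative of BRD3, was listed only in CAL-62, at 1.42 and 1.11 under DMSO and 2.58 and 1.03 after THZ1, and these values overlapped. The length behind its values, 33269 bases, exceeds the 12912 bases that the gene spans in RefSeq, so its level cannot be set against those of other genes. Pseudogene copies of HDAC1, SETD6, EZH2 and BRD9 are annotated in GENCODE, and how reads that match both were counted is not given in the sources used here, so the values of these genes carry that uncertainty. Of the MLLT genes, MLLT1 (ENL), a YEATS domain reader of acetylated histones in the super elongation complex, was the most expressed, at 38.0 and 45.9 in BCPAP and 40.9 and 44.9 in CAL-62 under DMSO. Its treated libraries overlapped the controls in both lines. MLLT3 (AF9), its paralogue, was the least expressed in BCPAP, with values from 1.75 to 2.82, and MLLT6 (AF17) had overlapping groups and changes of -0.48 in BCPAP and -0.27 in CAL-62.

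None of the 13 SMARC genes was called (against 4.62% of all genes in CAL-62 and 0.0% in BCPAP). Their median change was 0.10 in CAL-62 (-0.31 under sums of reads and -0.84 under the ribosomal protein scaling) and 0.06 in BCPAP (-0.10 and -0.15). SMARCAD1, a remodeler linked to DNA end resection and heterochromatin maintenance, had CAL-62 values of 8.39 and 7.57 under DMSO and 2.41 and 2.91 after THZ1. Its change of -1.30 was larger in size than that of SETDB1 but had a wider error (SE 0.36, limma adjusted p = 0.0711). In BCPAP its values of 13.6 and 9.29 under DMSO overlapped those of 12.2 and 5.52 after THZ1. SMARCAL1, an annealing helicase that acts at stalled replication forks, had BCPAP values of 8.22 and 9.17 under DMSO and 5.06 and 4.79 after THZ1. Both treated libraries were lower (change -0.71, SE 0.26, limma adjusted p = 0.932). The alternative SWI/SNF motors SMARCA4 (BRG1) and SMARCA2 (BRM) had changes of 0.33 and -0.01 in CAL-62 and of 0.03 and 0.13 in BCPAP. SMARCB1, a core SWI/SNF subunit, was the most expressed of the group in CAL-62 (73.8 and 89.5 under DMSO), and SMARCD3 the least expressed in BCPAP (1.61 and 1.82).

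The ARID genes are DNA-binding subunits and relatives named for a shared domain. None was called in either line (against 4.62% of all genes in CAL-62 and 0.0% in BCPAP). In CAL-62, 8 of 8 changes were negative, against 48.2% of all genes, with a median of -0.22. In BCPAP 2 of 9 were negative (22.2%, against 41.4% of all genes), with a median of 0.21. The CAL-62 change of ARID4A was only -0.0011. ARID1A, ARID3B, ARID4A and ARID4B had opposite signs in CAL-62 replicate numbers 1 and 2. The groups did not overlap for 3 of the 8 in CAL-62, all lower (37.5%, against 27.4% of all genes). The CAL-62 median was -0.60 under sums of reads and -1.09 under the ribosomal protein scaling, against -0.33 and -0.78 for all genes. The BCPAP median was 0.04 under sums of reads and -0.01 under the ribosomal protein scaling, against -0.09 and -0.14 for all genes. ARID5A, which binds and stabilises cytokine mRNAs, was the other gene whose responses differed without adjustment. Its BCPAP values were 2.93 and 2.69 under DMSO and 4.51 and 3.07 after THZ1, and its CAL-62 values 3.004 and 4.56 against 2.003 and 1.41. The treated pair was the higher one in BCPAP and the lower one in CAL-62, without overlap (difference -1.13, SE 0.39, limma adjusted p = 0.834). ARID1A, the SWI/SNF subunit most often mutated in cancer, was the most expressed ARID gene in BCPAP, at 27.5 and 28.6 under DMSO and 31.1 and 23.0 after THZ1.

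The 9 CHD genes had no call (against 4.62% of all genes in CAL-62 and 0.0% in BCPAP). Their median change was 0.13 in CAL-62 (-0.25 under sums of reads and -0.74 under the ribosomal protein scaling) and 0.20 in BCPAP (0.03 and -0.03). CHD4, the usual motor of NuRD, was the most expressed, with CAL-62 values of 66.2 and 57.7 under DMSO and 87.6 and 71.7 after THZ1. The treated pair was higher in both lines (changes of 0.35 in CAL-62 and 0.28 in BCPAP), although the CAL-62 change was not called (limma adjusted p = 0.266). CHD3, its paralogue, had a CAL-62 change of 0.73 (17.8 and 14.3 against 28.0 and 26.3, adjusted p = 0.117). CHD1, a remodeler that travels with elongating polymerase, had CAL-62 values of 17.5 and 15.1 under DMSO and 10.8 and 3.85 after THZ1. Its treated libraries were lower but far apart (change -1.19, SE 0.51, adjusted p = 0.165). CHD9 was the least expressed CHD gene in CAL-62 after THZ1 (3.10 and 3.14), with a change of -0.92 (adjusted p = 0.113).

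The difference of the THZ1 responses between the lines was tested for the 91 genes listed in both. Limma called 0 of 91 (0.0% of 10653 genes were called) and so did limma-voom. SIRT1 and ARID5A were the 2 with an unadjusted p under 0.05 (2.2%, against 5.28% of all genes). The changes had the same sign in both lines for 65 of 91 chromatin genes (71.4%), against 75.8% of all genes, with 20 positive in BCPAP and negative in CAL-62 and 6 the other way.

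Some chromatin genes changed in opposite directions in replicate numbers 1 and 2. THZ1 minus DMSO was computed between libraries of the same number, as a description, since the labels do not say what a number stands for. In CAL-62, 29 of 93 had opposite signs in numbers 1 and 2 (31.2%, against 23.3% of all genes), and 19 of these were higher in number 1 and lower in number 2 (20.4%, against 11.3%). In BCPAP, 29 of 95 had opposite signs (30.5%, against 26.6%), 23 of them higher in number 1 and lower in number 2 (24.2%, against 11.9%). Over the 10698 genes listed in both lines, the difference of number 1 from number 2 under DMSO correlated at 0.46 between the lines. The 2 lines may therefore not show this pattern separately. ARID1A is an example of opposite signs, with 14.0 under DMSO and 22.1 after THZ1 in CAL-62 number 1, and 15.03 and 7.98 in number 2. MLL5, chosen after its values were seen, went from 10.6 to 13.6 in number 1 and from 9.31 to 3.29 in number 2. HDAC1 and SETDB1 differed little between the numbers, with changes of 1.07 and 1.00 for HDAC1 and -1.20 and -1.29 for SETDB1 in CAL-62. Both were picked by a test that needs little spread within groups, so this closeness is no added support for the calls.

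**Figure D3:**
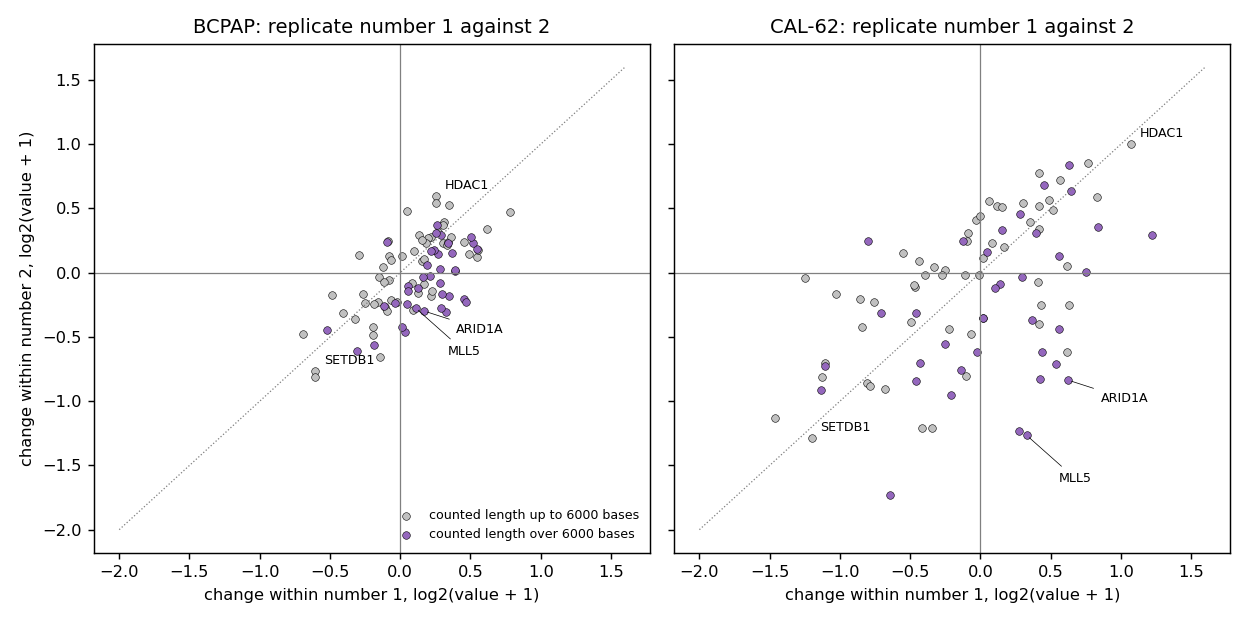
Change of each chromatin gene between THZ1 and DMSO libraries of replicate number 1 (horizontal axis) and of number 2 (vertical axis), both in log2(value + 1), with genes of a counted length over 6000 bases in purple and the dotted line marking equal changes. In CAL-62 HDAC1 and SETDB1 lie near that line, whereas ARID1A (0.62 and -0.84) and MLL5 (0.33 and -1.27) lie in the quadrant of opposite signs.

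The chromatin genes were long. The median length behind their values, without BRD2, was 5466 bases in CAL-62, against 2933 for all genes, and 39.1% of them exceeded 6000 bases, against 13.4% of all genes. The 36 chromatin genes over 6000 bases in CAL-62 had a median change of 0.22 in number 1 and of -0.33 in number 2, while all genes of that length had medians of -0.02 and -0.08. In BCPAP the 38 over 6000 bases had medians of 0.25 and -0.09, against 0.15 and -0.01 for all genes of that length. The 19 chromatin genes under 3000 bases in CAL-62 had medians of 0.02 and 0.12. Over the chromatin genes, Spearman's correlation of length with change in CAL-62 was 0.06 in number 1 and -0.26 in number 2 (n = 92 genes, which share their libraries), against -0.16 and -0.22 over all genes. In BCPAP it was 0.22 and -0.26 (n = 95), against 0.21 and -0.18 over all genes. The part of length in the changes was not tested.

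**Figure D4:**
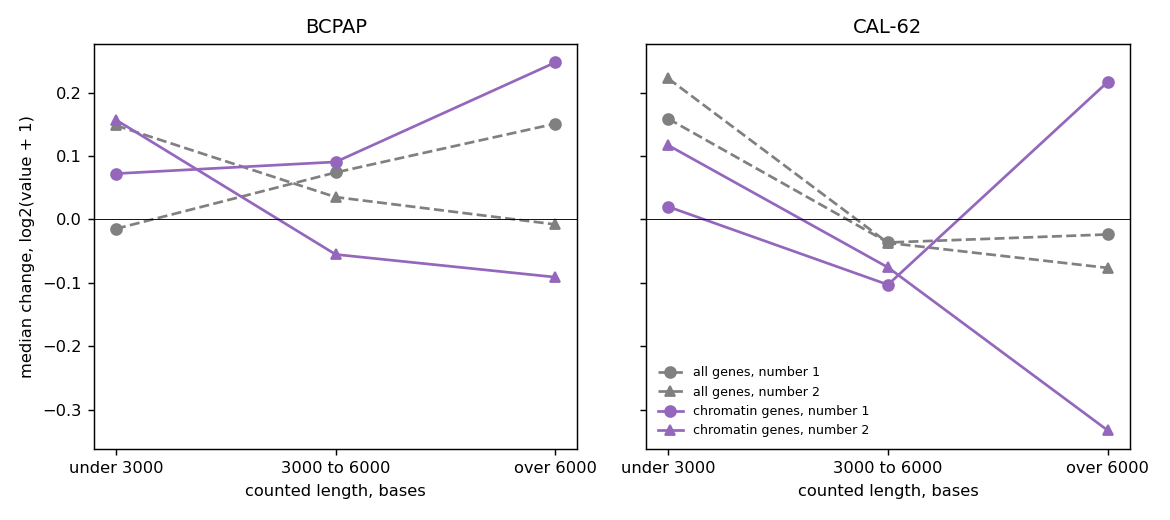
Median change after THZ1 (vertical axis, log2(value + 1)) of genes in 3 classes of counted length (horizontal axis, bases), for replicate numbers 1 (circles) and 2 (triangles), with all genes in grey dashes and chromatin genes in purple. Among CAL-62 chromatin genes over 6000 bases the medians of the numbers part to 0.22 and -0.33.

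Between the lines without the drug, 12 of 91 chromatin genes differed (13.2%; limma adjusted p under 0.05), against 14.4% of 10653 genes, and 29 had an unadjusted p under 0.05 (31.9%, against 32.1%). The 8 lower in CAL-62 were HDAC5, SETD3, KDM5B, ARID3B, KDM1A, BRD9, KAT2B and MLLT4 (7.85% of all genes were lower), and the 4 higher were SETD6, CHD7, EZH2 and BRD1 (6.51% of all genes were higher). For this comparison the values were first brought to 1 scale over all 8 libraries. The balance of directions depended on that scale: sums of reads gave 7 higher and 6 lower, and the ribosomal protein reference gave 6 higher and 2 lower. Under the latter, SETD6, CHD7, EZH2, BRD1, HDAC5 and SETD3 remained among those called.

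HDAC5, a class IIa deacetylase, stood at 7.67 and 9.35 in untreated BCPAP and at 1.57 and 2.26 in untreated CAL-62. It was lower in both CAL-62 libraries (difference -1.71, SE 0.30, limma adjusted p = 0.0125). SETD3, which methylates a histidine of actin, had 23.9 and 26.7 in BCPAP and 6.38 and 7.76 in CAL-62. This was the difference with the smallest adjusted p of the group (-1.70, SE 0.26, adjusted p = 0.0076). EZH2 had 15.5 and 13.6 in BCPAP against 33.2 and 33.1 in CAL-62, with both CAL-62 libraries well above both BCPAP libraries (difference 1.15, SE 0.24, adjusted p = 0.0208). SETD6 had 1.78 and 2.01 in BCPAP against 5.44 and 7.55 in CAL-62 (difference 1.37, adjusted p = 0.0264). Both CAL-62 libraries were the higher ones for CHD7, the remodeler mutated in CHARGE syndrome, as well, with 2.53 and 2.12 in BCPAP against 6.91 and 6.58 in CAL-62 (difference 1.23, adjusted p = 0.0191). BRD1, a scaffold of histone acetyltransferase complexes, had 4.54 and 4.72 against 8.87 and 10.6 (difference 0.93, adjusted p = 0.0422).

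KDM5B, a demethylase of histone H3 lysine 4, had 17.02 and 21.4 in BCPAP against 6.52 and 6.76 in CAL-62 (difference -1.39, limma adjusted p = 0.0456). ARID3B, a relative of the B-cell factor ARID3A, had 7.14 and 10.7 against 2.75 and 2.84 (difference -1.36, adjusted p = 0.0178). The libraries of the lines did not overlap for these genes, nor for KDM1A (-0.92), BRD9 (-0.89), a subunit of the non-canonical SWI/SNF complex, KAT2B (-0.89) and MLLT4 (-0.79), whose adjusted p-values lay between 0.0249 and 0.0491. Leaving out any 1 of the 4 DMSO libraries ended nearly all of these calls, leaving 0 or 1 of the 12, and the 1 left was SETD3.

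**Figure D5:**
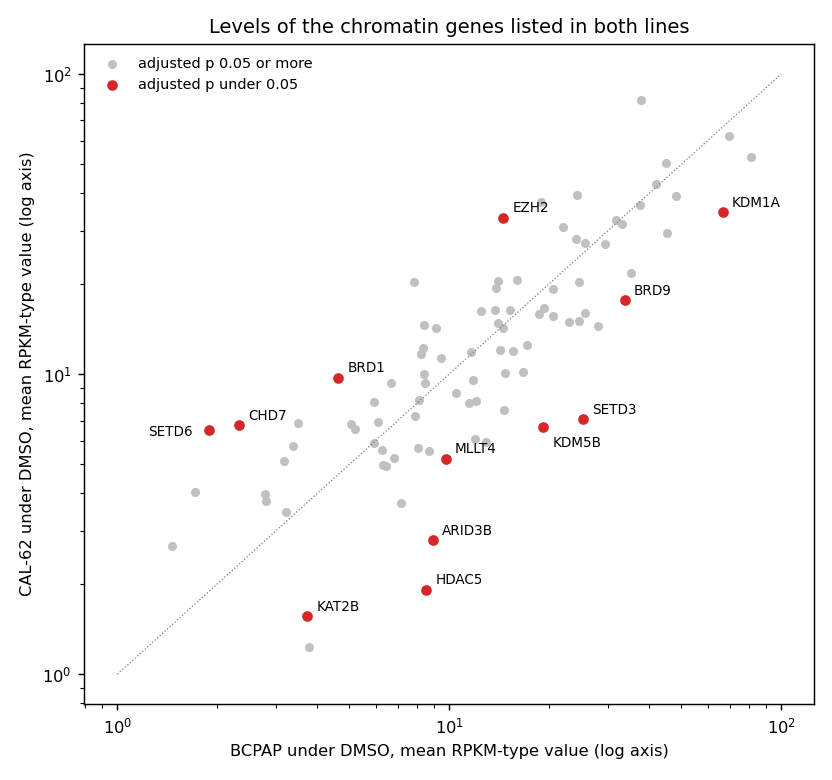
Mean RPKM-type value under DMSO in BCPAP (horizontal axis) and CAL-62 (vertical axis), both on log axes, for the 91 chromatin genes listed in both lines, with the 12 called genes in red and the dotted line marking equal values. HDAC5, SETD3, KDM5B and ARID3B lie furthest below the line among the called genes, and SETD6, CHD7, EZH2 and BRD1 above it.

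Other chromatin genes outside the symbol rule were taken as a list of partners and related enzymes, of which 89 were listed. In CAL-62, 86 were tested, and 0 were called higher and 4 lower (4.65%, against 4.62% of all genes). The largest falls were in PRMT6, an arginine methyltransferase of histone H3, and SUV420H2 (KMT5C), which methylates histone H4 lysine 20. PRMT6 fell from 5.91 and 5.41 to 1.31 and 1.27 in CAL-62 (change -1.54, SE 0.22, limma adjusted p = 0.0175). SUV420H2 fell from 5.50 and 9.82 to 2.17 and 1.78 (change -1.50, SE 0.30, adjusted p = 0.0404). The others called were SUV39H1, which like SETDB1 methylates histone H3 lysine 9, with a change of -1.14, and ING4, a reader of histone H3 lysine 4 methylation in the HBO1 complex, with a change of -1.15. The largest positive changes, in BCL7C and PRMT1, were 0.93 and 0.83 and were not called (adjusted p = 0.0586 and 0.0601). In BCPAP 0 of 89 were called by limma, and 4 had an unadjusted p under 0.05 (4.49%, against 4.01% of all genes). PRMT6 had the lowest change there too, -1.01. The difference of the responses was called for 0 of 86.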

How the data were processed

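Poly(A)-selected RNA was measured in 8 libraries, 2 in each of 4 groups. The authors deposited 1 value per gene and library, and the unit, RPKM-type (reads per length and library total), was inferred from the values, since the headers give only a library title. Bowtie2, DESeq2 and hg19 are named in the submitters' processing notes, without roles or versions; for the annotation and the strand setting, no source used here gives them. A whole gene length and whole reads that matched the values within 0.02 reads were found for 12715 of 12715 genes, which gave the depths. Library totals behind the deposited values tracked median-of-ratios factors, with a largest departure of 2.22% in BCPAP and 2.12% in CAL-62, so a change in total mRNA per cell would not show. Fewer cells and less RNA per cell cannot be told apart either.

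limma 3.58.1 in R 4.3.3 was fitted to log2(value + 1) of the genes whose mean value was 1 or more, with a trend of variance on mean. It used a mean for each of the 4 groups over all 8 libraries, two-sided p-values and Benjamini-Hochberg adjustment over all genes, with calls at an adjusted p under 0.05. Genes in 1 table used the 4 libraries of that line, and the lines were compared after median-of-ratios scaling. The fit was tested on simulated reads, drawn independently for each library with the same scatter setting for all genes. The simulation had no shared deviations of same-numbered libraries, so it does not show how the fit behaves with them. Changes on this scale understate those of low genes. Medians and counts of gene groups are descriptions, given beside those of all genes.

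Named genes are those called in any of the 4 comparisons, the 5 largest rises and 5 largest falls per line at a mean value of at least 5, the highest and lowest expressed of each group, and BRD2, BRD3, EZH2, SMARCA4, SMARCA2, ARID1A, HDAC1, KDM1A, KAT2A and SIRT1. Some items the rule names are not reported here. The members and lists were chosen with earlier results of these data known. Alternatives changed the pseudocount, filter, scaling, test, libraries and replicate block.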

Additional observations from a re-analysis of the deposited data

How the results depend on the processing

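After THZ1 in CAL-62, the 2 chromatin genes called became 1 with a mean value of at least 5 (HDAC1), 11 with scaling to sums of reads (0 higher, 11 lower; 13.1% of all genes were called), 5 with upper-quartile scaling (1 higher, 4 lower; 7.01%), 32 with the ribosomal protein reference (0 higher, 32 lower; 29.1%) and 0 with the 4 libraries of the line alone. SETDB1 lay below the filter of a mean value of at least 5 and was not tested under it. The count was 2 or 3 under the other settings that kept all libraries and had no block. Leaving out 1 library gave 0 to 3: 0 without either BCPAP DMSO library, either CAL-62 DMSO library or CAL-62 THZ1 replicate 1, 1 without CAL-62 THZ1 replicate 2 (ARID3A) and 3 without either BCPAP THZ1 library. The 12 genes called between the lines under DMSO ranged from 0 to 16 over such omissions and from 8 to 16 over scalings, filters, pseudocounts and limma-voom. Counts in BCPAP and for the difference of responses were 0 under every setting run. With the replicate block, the counts were 27 in CAL-62 (12 higher, 15 lower; 40.2% of all genes were called) and 35 between the lines (16 higher, 19 lower; 40.5%); deviations of same-numbered libraries correlated at 0.77 in BCPAP and 0.47 in CAL-62, but no label says what a number stands for. The cause of these shifts was not tested. HDAC1 was called in 11 of 20 alternatives and SETDB1 in 12 of 19, and neither change reversed its sign. Limma-voom was run on genes in both tables only. Chromatin genes with the fewest reads (36 to 53 in their lowest library) carry the most counting error. With 2 libraries a group, the spread rests on few degrees of freedom, and a group left with 1 library was assumed to vary like the others.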
